A study of Homo sapiens with 2 samples.

Results

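Chromatin modifier and remodeler genes were followed in UACC62, an established human melanoma cell line, when the transcription factor FOSL1 was depleted. The members were the genes whose symbol starts with HDAC, KDM, KMT, KAT, SMARC, ARID, BRD or CHD followed by a digit (for SMARC also a letter), without a hyphen, each read from the probe set of highest mean log2 value. This rule found 66 of the 14884 genes that the probe-to-gene table names. It uses no measured value beyond that mean, but it was set with earlier results of these data known. They comprised 11 HDAC, 19 KDM, 6 KMT, 7 KAT, 8 ARID, 5 BRD and 10 CHD genes, and no SMARC gene. All but BRD7P3, a pseudogene, were protein-coding. The RefSeq gene table holds 90 protein-coding genes that meet the rule, and 25 of them had no named probe set here, including all 13 SMARC genes, ARID2, BRD9, KMT2A, KMT2E and KAT6A. These were not analysed here.

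The FOSL1 siRNA group was 1 culture of UACC62 cells that received an siRNA specific for FOSL1, and the control siRNA group was 1 culture that received a non-targeting siRNA. Both were grown in serum-containing medium and harvested 3 days after transfection, and each was read on 1 whole-transcript Affymetrix array. The knockdown was transient and partial in a single line, and the sources do not say how many siRNA sequences were used, so effects of the siRNA on other transcripts cannot be told apart from those of FOSL1 loss. By its title, the series belongs to work on FOSL1 in melanocyte reprogramming and transformation.

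Histones carry acetyl and methyl groups on their lysines that are written, erased and read by separate proteins. Acetyltransferases (KAT) and methyltransferases (KMT) write them, deacetylases (HDAC) and demethylases (KDM) erase them, and bromodomain proteins (BRD) bind acetylated lysine. CHD proteins and some SMARC proteins use ATP to move or exchange nucleosomes, and several ARID proteins are DNA-binding subunits of such remodeling machines. FOSL1 is a FOS-family subunit of AP-1, and AP-1 is known to bind at distal regulatory elements together with chromatin remodelers of the SWI/SNF type. Several of these genes are known from melanoma, where KDM5B marks slowly cycling cells and ARID1A and ARID2 are recurrently mutated.

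Values are log2 intensities as deposited, and every difference is FOSL1 siRNA minus control siRNA on that scale. A gene passed the filter on dim genes when its mean log2 value reached 8.02, the median over named genes, which left 7442 genes and 59 of the 66 members. With 1 array per condition there was no replicate, so no test was run, no replicate error can be given, and every difference describes these 2 arrays. The yardstick available was the SD of 0.177 log2 units between probe sets of the same gene, taken from 195 genes with 2 probe sets past the filter, and it leaves out variation between cultures. Both arrays have almost the same distribution of values, with a median of 6.89 each, so a change in the RNA content of the cells would not show. In such bulk RNA, fewer cells of a kind and less RNA per cell cannot be told apart.

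FOSL1 had a log2 value of 10.38 with FOSL1 siRNA, against 11.90 with control siRNA, a difference of -1.53 and the lowest of the 7442 genes. Of 13 listed melanocytic markers 11 were named on the array, and 8 of these passed the filter, which 50% of named genes pass by construction. Among the 8 were SOX10, MITF, TYR, MLANA and S100B, while PMEL, TYRP1 and GPR143 did not pass. For keratinocytes, other epithelia, fibroblasts, leukocytes and endothelium, 23 markers were listed and 13 were named, so the rest could not be read. Of the 13, the proteoglycan gene LUM passed the filter, with log2 values of 11.53 with FOSL1 siRNA and 11.05 with control siRNA. The other 12 lay below the filter.

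The 4 sequences that follow are the 250 bases upstream of the RefSeq start site of the 2 members with the highest differences and the 2 with the lowest. They are shown so that the start regions of genes at both ends of the range can be compared. All are GRCh38.p14 sequences from RefSeq, written 5′ to 3′ on the gene's own strand. None held the AP-1 motif, searched as TGACTCA and TGAGTCA, which are reverse complements and so cover both strands.
KDM7A, chr7:140176984-140177233, minus strand: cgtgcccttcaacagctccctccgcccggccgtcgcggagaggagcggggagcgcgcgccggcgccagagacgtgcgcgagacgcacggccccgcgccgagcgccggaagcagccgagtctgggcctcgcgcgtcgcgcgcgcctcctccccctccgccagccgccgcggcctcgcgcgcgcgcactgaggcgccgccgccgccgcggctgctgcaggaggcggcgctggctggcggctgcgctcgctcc
CHD2, chr15:92900074-92900323, plus strand: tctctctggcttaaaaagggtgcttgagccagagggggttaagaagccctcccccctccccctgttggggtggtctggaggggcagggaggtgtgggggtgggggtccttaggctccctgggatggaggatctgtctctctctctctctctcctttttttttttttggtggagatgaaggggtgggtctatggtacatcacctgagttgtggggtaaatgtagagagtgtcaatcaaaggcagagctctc
KMT5B, chr11:68213649-68213898, minus strand: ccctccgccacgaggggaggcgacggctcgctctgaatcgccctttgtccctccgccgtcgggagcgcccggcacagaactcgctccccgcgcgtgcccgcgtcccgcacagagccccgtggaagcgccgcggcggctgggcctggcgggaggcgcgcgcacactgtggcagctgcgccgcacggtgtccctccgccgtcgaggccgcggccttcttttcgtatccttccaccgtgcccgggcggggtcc
HDAC7, chr12:47819904-47820153, minus strand: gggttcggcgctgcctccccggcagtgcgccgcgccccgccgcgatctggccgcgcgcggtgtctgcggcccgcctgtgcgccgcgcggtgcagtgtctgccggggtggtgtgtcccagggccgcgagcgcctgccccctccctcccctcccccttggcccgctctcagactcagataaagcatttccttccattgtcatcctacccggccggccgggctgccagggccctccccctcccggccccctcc
The 2 genes with the highest differences had unlike start regions. The stretch of KDM7A was 81.6% G and C with 50 CpG dinucleotides, whereas that of CHD2 was 54.8% G and C with 0. Those of KMT5B and HDAC7 were both 75.6% G and C, with 39 and 28 CpG dinucleotides. KMT5B has 3 start windows in the table and the first listed is printed.

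The AP-1 motif occurred in 3 of 92 start windows of the chromatin genes, each window running from 250 bases before to 50 after a start site. This was 3.26% of windows, beside 4.95% of all 35116 windows and 3.38% of the 8533 windows of genes past the filter. The windows covered 57 of the 66 members. All 3 motifs lay upstream of demethylase (KDM) genes, which hold 24 of the 92 windows. The motifs are printed with the bases around them because AP-1 is the complex that FOSL1 belongs to. Capitals mark the motif.
KDM3A, chr2:86441396-86441452, plus strand: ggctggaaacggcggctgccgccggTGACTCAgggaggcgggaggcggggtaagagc
KDM4C, chr9:6757889-6757945, plus strand: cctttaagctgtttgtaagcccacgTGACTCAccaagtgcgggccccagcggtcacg
KDM6A, chrX:44873053-44873109, plus strand: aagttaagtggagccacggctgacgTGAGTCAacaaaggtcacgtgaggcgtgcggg
The motif began 40 bases before the start of KDM3A, 59 before that of KDM4C and 110 before that of KDM6A. KDM3A has 2 start windows, and its distance is to the start of the window that held the motif. The log2 differences of the 3 genes were 0.03, 0.05 and 0.26, and a letter match is a description of the sequence, not of binding.

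As a group the chromatin genes spread about as widely as all genes past the filter. The interquartile range of differences was -0.11 to 0.18 for the members and -0.13 to 0.14 for all genes. None of the 59 members past the filter was 1.5-fold higher or lower with FOSL1 siRNA, where 1.13% of all genes past the filter were this much higher and 0.766% this much lower. At shares this small, 0 of 59 is not a result about the members. A smaller size, 0.32 log2 units (25% higher or 20% lower), was reached upward by 2 members (3.39%, against 7.38% of all genes) and downward by 0 (against 5.91% of all genes). The median difference of the members was 0.00, and that of all genes past the filter was -0.00. Of the members 30 lay above 0, 28 below and CHD4 at 0, while 49.8% of all genes past the filter lay above. Differences larger than the SD between probe sets were found for 23 members, or 39.0%, and for 38.5% of all genes.

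**Figure D1:**
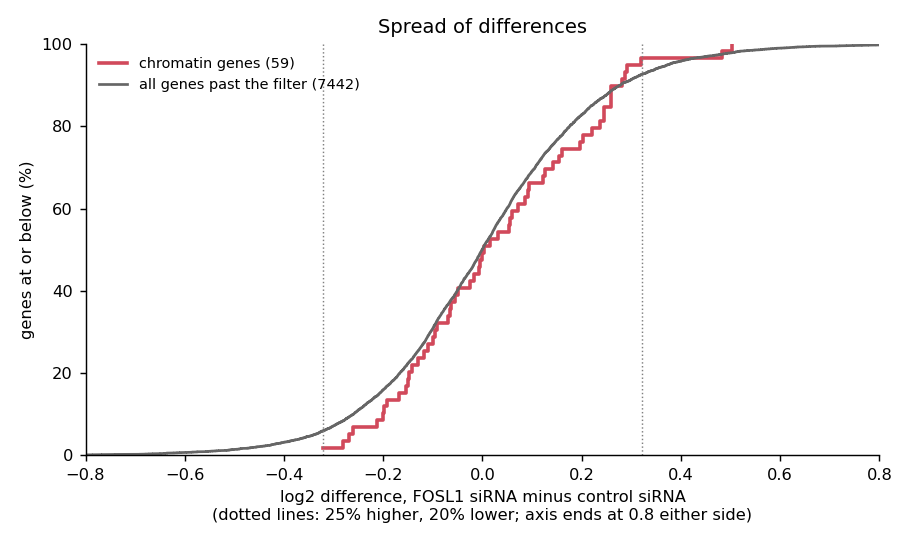
Cumulative share of genes (vertical axis, percent) at or below each log2 difference, FOSL1 siRNA minus control siRNA (horizontal axis), for the 59 chromatin genes past the filter (red) and all 7442 genes past it (grey). Dotted lines mark 0.32 log2 units either side, and 2 chromatin genes lie beyond the upper line and 0 beyond the lower.

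The 2 members beyond 0.32 log2 units were a demethylase and a remodeler. KDM7A (Entrez gene 80853, probe set 17063507) encodes a JmjC enzyme that removes methyl groups from the repressive positions H3K9 and H3K27 of histone H3. Its log2 value was 8.34 with FOSL1 siRNA, against 7.84 with control siRNA, a difference of 0.50 or 1.42-fold, which ranked 159 from the highest of the 7442 genes. CHD2 (Entrez gene 1106, probe set 16805230) is a chromodomain helicase that deposits histone H3.3 at active genes. Its log2 value was 8.51 with FOSL1 siRNA, against 8.03 with control siRNA, a difference of 0.48 that ranked 186 from the highest. Both were low in the control array, where KDM7A lay under the filter and CHD2 just above it. KMT2C and KMT5B, at 1.248-fold higher and 1.249-fold lower, lay just inside the line.

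**Figure D2:**
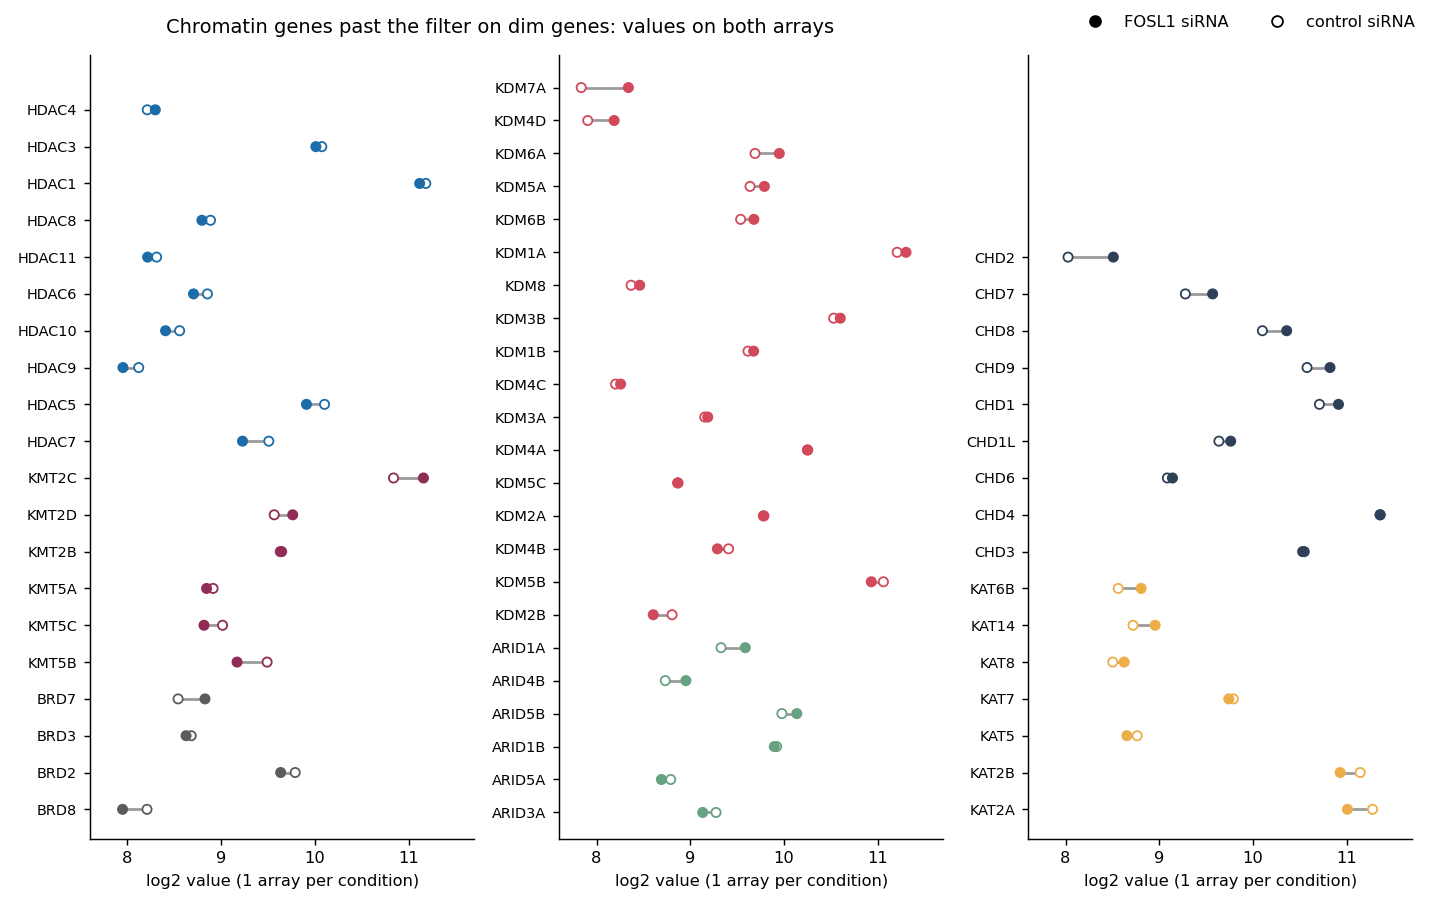
Log2 value (horizontal axis) of each chromatin gene past the filter with FOSL1 siRNA (filled points) and control siRNA (open points), 1 array per condition, grouped by symbol prefix in colour and ordered by difference within each prefix. The filled point lies left of the open one for 9 of 10 HDAC genes and right of it for 7 of 9 CHD genes.

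Of the 10 deacetylase genes past the filter, 9 had a lower log2 value with FOSL1 siRNA, with a median difference of -0.12. Of all genes past the filter, 49.8% lay above 0. None of the 10 was 20% lower, where 5.91% of all genes past the filter were. Only HDAC7 and HDAC5 had differences larger than the SD between probe sets, where 38.5% of all genes did. HDAC7, a class IIa enzyme that shuttles between nucleus and cytoplasm, had log2 values of 9.23 with FOSL1 siRNA and 9.51 with control siRNA, a difference of -0.28. HDAC5, of the same class, had 9.91 with FOSL1 siRNA and 10.10 with control siRNA, a difference of -0.19. Also below 0 was the class IIa gene HDAC9, at 7.95 with FOSL1 siRNA and 8.12 with control siRNA, a difference of -0.17. Its FOSL1 siRNA value lay under the filter, which HDAC9 passed only through the control array, where it was higher. HDAC4, the remaining class IIa gene, went the other way by its brighter probe set, with 8.30 with FOSL1 siRNA and 8.21 with control siRNA. Its dimmer probe set gave -0.14 in place of 0.09, so HDAC4 has no settled direction.

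The other deacetylases had differences between -0.15 and -0.06 where they passed the filter. HDAC10, which deacetylates polyamines, had a difference of -0.15, and HDAC6, the cytoplasmic tubulin deacetylase, also -0.15. HDAC11, the class IV enzyme, had a difference of -0.10. The class I enzymes HDAC1 and HDAC3 are the catalytic subunits of the main corepressor complexes. HDAC1 had log2 values of 11.12 with FOSL1 siRNA and 11.18 with control siRNA, and HDAC3 had 10.01 with FOSL1 siRNA and 10.07 with control siRNA. Their differences of -0.07 and -0.06, and that of HDAC8 at -0.09, were smaller than the SD between probe sets. HDAC2, the close partner of HDAC1, lay below the filter with log2 values of 8.05 with FOSL1 siRNA and 7.92 with control siRNA, and its other probe set was dimmer still, at 4.68 with FOSL1 siRNA and 4.49 with control siRNA. Both of its probe sets gave positive differences, 0.13 and 0.19.

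The CHD remodelers lay mostly on the other side. Of the 9 past the filter, 7 were above 0, beside 49.8% of all genes, with a median of 0.20, and CHD2 has been described. CHD7, mutated in CHARGE syndrome and active in the neural crest, had log2 values of 9.57 with FOSL1 siRNA and 9.28 with control siRNA, a difference of 0.29. CHD8, a repressor of beta-catenin targets known from autism, had 10.36 with FOSL1 siRNA and 10.10 with control siRNA, a difference of 0.26. CHD9 and CHD6 belong to the same subfamily as CHD7 and CHD8. CHD9 had 10.82 with FOSL1 siRNA and 10.58 with control siRNA, a difference of 0.25, and CHD6 differed by 0.05. CHD1, which binds trimethylated H3K4, had 10.91 with FOSL1 siRNA and 10.71 with control siRNA, a difference of 0.20, and CHD1L, a remodeler recruited to DNA damage, differed by 0.13.

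The exceptions were the ATPases of the NuRD complex, which joins nucleosome remodeling to deacetylation. CHD4 had a log2 value of 11.36 on both arrays and CHD3 differed by -0.02, while the neuronal paralog CHD5 was below the filter, at 7.44 with FOSL1 siRNA and 7.41 with control siRNA. The 7 other NuRD genes measured, from a separate list, had a median difference of -0.05 and a range of -0.16 for GATAD2A to 0.03 for MBD2. All 11 NuRD genes given here past the filter had differences within the SD between probe sets, which 38.5% of all genes past the filter exceeded. These were HDAC1, CHD3, CHD4, the 7 partners and KDM1A, which can associate with NuRD.

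**Figure D3:**
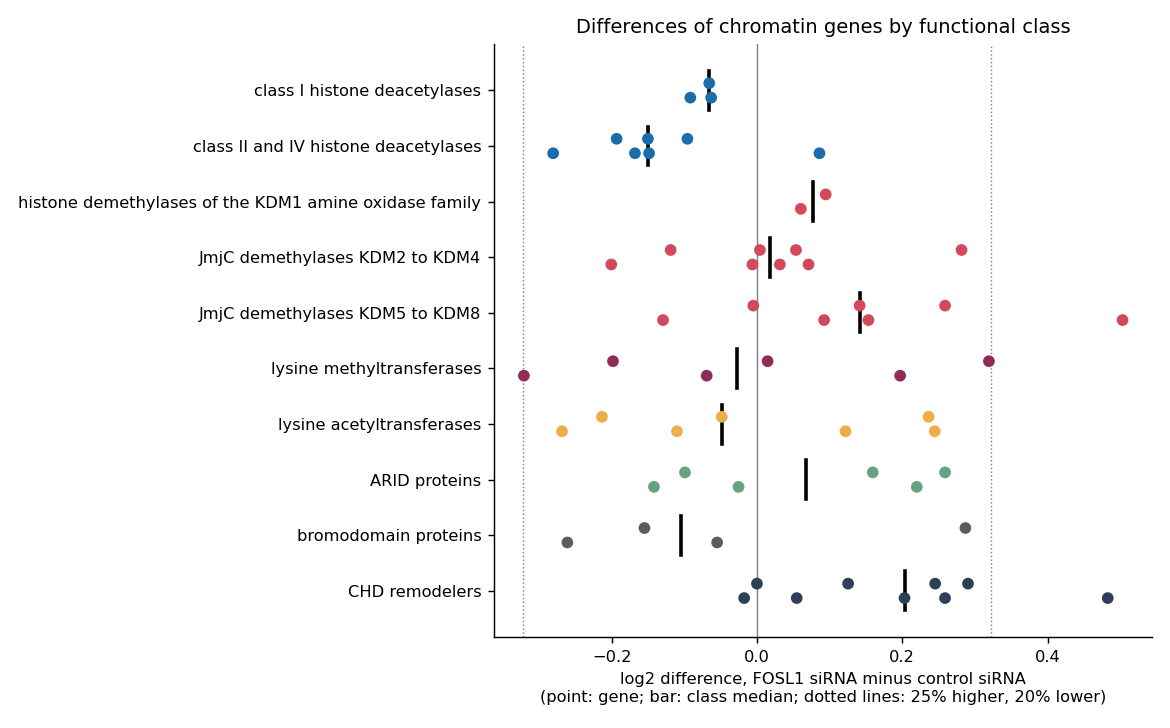
Log2 difference, FOSL1 siRNA minus control siRNA (horizontal axis), of each chromatin gene past the filter by functional class (rows), 1 point per gene, with the class median as a bar and dotted lines at 0.32 log2 units either side. The medians run from -0.15 for class II and IV deacetylases to 0.20 for CHD remodelers.

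Gene span moved with these differences. Over all genes past the filter, sorted into 3 equal bins by span, the median difference was -0.10 in the bin of shortest genes and 0.07 in the bin of longest genes, where span is the distance from start to end of the gene in the RefSeq table. The chromatin genes had a median span of 55673 bases, beside 27446 for all genes. In the bin of shortest genes 1 of 6 chromatin genes lay above 0, where 31.2% of all genes did, with a median of -0.15. In the middle bin 5 of 19 chromatin genes lay above 0, where 52.1% of all genes did, and their median was -0.05, beside 0.01 for all genes. In the bin of longest genes 24 of 34 lay above 0, where 66.1% of all genes did, with a median of 0.09. HDAC genes had a median span of 40084 bases and CHD genes of 123016. With the trend on span removed, the CHD median was 0.14 and 6 of 9 genes lay above 0, while the HDAC median was -0.13 and 10 of 10 lay below. HDAC4, without a settled direction, was among these 10 at -0.02. Of all 59 members, 24 then lay above 0 and 35 below, with a median of -0.03. The part of span in the differences was not tested beyond this.

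**Figure D4:**
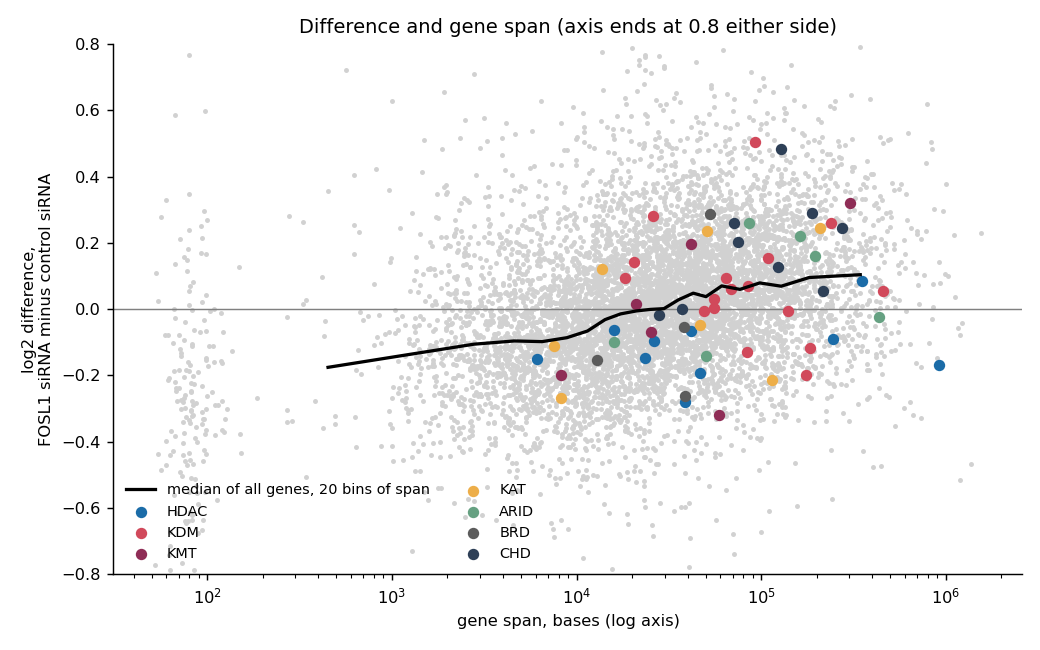
Log2 difference, FOSL1 siRNA minus control siRNA (vertical axis), against gene span in bases (horizontal log axis) for all genes past the filter (grey) and the chromatin genes by prefix (colours). The black line joins medians of all genes in 20 bins of span and climbs from below 0 for short genes to above 0 for long genes.

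The 6 KMT genes lay on both sides of 0, with a median of -0.03. KMT2 enzymes methylate H3K4 (lysine 4 of histone H3), a mark of promoters and enhancers, and the 3 named here lay above 0. KMT2C, which acts at enhancers, had log2 values of 11.16 with FOSL1 siRNA and 10.84 with control siRNA, a difference of 0.32. Its relative KMT2D had 9.76 with FOSL1 siRNA and 9.56 with control siRNA, a difference of 0.20, and KMT2B differed by 0.01. SETD1A, a writer of the same mark without the KMT prefix, lay on the other side at -0.21 and was named after its value was seen. KMT5 enzymes methylate H4K20, a mark of compacted chromatin and of replication control, and all 3 lay below 0. KMT5B had 9.17 with FOSL1 siRNA and 9.49 with control siRNA, a difference of -0.32 and the lowest of the 59 members. KMT5C, which shares its di- and trimethylating activity, had 8.82 with FOSL1 siRNA and 9.01 with control siRNA, a difference of -0.20. KMT5A, which adds the first methyl group, differed by -0.07.

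The erasers of H3K4 methylation showed no common direction. KDM5B had log2 values of 10.93 with FOSL1 siRNA and 11.06 with control siRNA, a difference of -0.13, whereas KDM5A had 9.79 with FOSL1 siRNA and 9.64 with control siRNA, a difference of 0.15. KDM5C, from the X chromosome, was at -0.00, and its Y-linked relative KDM5D lay below the filter and is not given further. KDM1A, the flavin-dependent demethylase LSD1 of the CoREST complex, had 11.30 with FOSL1 siRNA and 11.21 with control siRNA, a difference of 0.09, and KDM1B differed by 0.06. Each of these differences was smaller than the SD between probe sets.

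KDM6A and KDM6B, which like KDM7A remove methyl groups from H3K27, the mark of Polycomb silencing, lay above 0. KDM6A had log2 values of 9.95 with FOSL1 siRNA and 9.69 with control siRNA, a difference of 0.26, and it is the gene with an AP-1 motif 110 bases upstream printed above. KDM6B, an inducible enzyme of inflammatory and stress responses, had 9.68 with FOSL1 siRNA and 9.54 with control siRNA, a difference of 0.14. KDM8, a JmjC hydroxylase, differed by 0.09. The class of KDM5 to KDM8 had the second highest median of the 10 classes, 0.14, with 5 of 7 genes above 0, beside 49.8% of all genes. Its median span of 83927 bases fell in the bin of longest genes, of which 66.1% lay above 0.

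Demethylases of the KDM2 to KDM4 families, which act on H3K9 and H3K36, centred on 0 with a median of 0.02. KDM2B, which recruits a variant Polycomb complex to CpG islands, had log2 values of 8.61 with FOSL1 siRNA and 8.81 with control siRNA, a difference of -0.20. KDM4B had 9.29 with FOSL1 siRNA and 9.41 with control siRNA, a difference of -0.12. KDM4D lay highest in the class, with 8.19 with FOSL1 siRNA and 7.91 with control siRNA, a difference of 0.28. Its control value lay under the filter, which KDM4D passed only through the FOSL1 siRNA array, where it was higher. KDM4D has a close copy, KDM4E, whose probe set was dim at 6.37 with FOSL1 siRNA and 6.35 with control siRNA. Signal shared between such copies could make the value of KDM4D uncertain, which was not tested. KDM2A, KDM3A, KDM3B, KDM4A and KDM4C lay between -0.01 and 0.07.

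Acetyltransferases lay on both sides of 0, with a median of -0.05. KAT2A and KAT2B, the alternative catalytic subunits of the SAGA coactivator known as GCN5 and PCAF, were both lower with FOSL1 siRNA. KAT2A had log2 values of 11.01 with FOSL1 siRNA and 11.27 with control siRNA, a difference of -0.27, and KAT2B had 10.93 with FOSL1 siRNA and 11.14 with control siRNA, a difference of -0.21. KAT14, which joins KAT2A in the ATAC complex, was higher, with 8.96 with FOSL1 siRNA and 8.72 with control siRNA, a difference of 0.24. KAT6B, of the MYST family, had 8.81 with FOSL1 siRNA and 8.56 with control siRNA, a difference of 0.24. The other MYST enzymes differed less, with -0.11 for KAT5 (TIP60), -0.05 for KAT7 (HBO1) and 0.12 for KAT8 (MOF).

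Among the bromodomain genes, BRD8 and BRD7 lay at opposite ends. BRD8, a subunit of the TIP60 complex, had log2 values of 7.95 with FOSL1 siRNA and 8.21 with control siRNA, a difference of -0.26. Its FOSL1 siRNA value lay under the filter, which BRD8 passed only through the control array, where it was higher. BRD7, a subunit of the SWI/SNF complex PBAF, had 8.83 with FOSL1 siRNA and 8.54 with control siRNA, a difference of 0.29. The BET proteins BRD2 and BRD3 bind acetylated histones at active promoters and enhancers. BRD2 had 9.63 with FOSL1 siRNA and 9.79 with control siRNA, a difference of -0.15, and BRD3 differed by -0.05. The pseudogene BRD7P3 was at 3.58 with FOSL1 siRNA and 3.89 with control siRNA, the dimmest of the members whose values are given.

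The ARID genes had a median of 0.07. ARID1A and ARID1B are alternative subunits of the SWI/SNF complex BAF, and they were unlike each other here. ARID1A had log2 values of 9.59 with FOSL1 siRNA and 9.33 with control siRNA, a difference of 0.26, while ARID1B had 9.90 with FOSL1 siRNA and 9.92 with control siRNA, a difference of -0.03. ARID4B, a subunit of the SIN3 corepressor, had 8.95 with FOSL1 siRNA and 8.73 with control siRNA, a difference of 0.22. ARID5B had a difference of 0.16, ARID5A -0.10 and ARID3A -0.14. ARID3B and ARID3C lay below the filter, with differences of -0.07 and 0.07. In a separate list, 9 further SWI/SNF genes past the filter had a median of 0.02, with BCL7C the lowest at -0.26 and BICRAL the highest at 0.20. None of them differed by 0.32, and 86.7% of all genes past the filter also lay within that line.

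Chromatin regulators without these prefixes gave the surroundings of the members. In 13 lists of them, 198 genes beyond the members were named and 183 passed the filter. Of the 183, 14 (7.65%) were at least 25% higher and 3 (1.64%) at least 20% lower, against 7.38% and 5.91% of all genes. Their median was 0.03, and 105 (57.4%) lay above 0, against 49.8% of all genes. The 2 genes at least 1.5-fold higher were ACTR6, an actin-related subunit of the SRCAP complex that exchanges the histone variant H2A.Z, and TET1, which oxidises methylated cytosine. ACTR6 had log2 values of 8.39 with FOSL1 siRNA and 7.67 with control siRNA, a difference of 0.72. Its control value lay under the filter, which ACTR6 passed only through the FOSL1 siRNA array, where it was higher. TET1 had 8.93 with FOSL1 siRNA and 8.34 with control siRNA, a difference of 0.59. The genes at least 20% lower were PHF1, an accessory subunit of the Polycomb complex PRC2, at -0.42, INO80E of the INO80 remodeler, at -0.41, and JADE2, a scaffold of the KAT7 complex, at -0.39.

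Partners of the members did not all lie on the side of the member they bind. Polycomb genes had a median of 0.04 with 15 of 25 above 0. MTF2, which like PHF1 is a Polycomb-like protein of PRC2, was at 0.48, opposite in direction to PHF1, and the catalytic subunit EZH2 was at 0.12. DNA methylation genes had 13 of 15 above 0 and a median of 0.06, where 49.8% of all genes past the filter lay above 0. Their median span of 59075 bases fell in the bin of longest genes, of which 66.1% lay above 0. The part of span in this list was not tested. Partners of the KMT2 enzymes in COMPASS complexes had a median of -0.02, with their common subunit WDR5 at -0.27. TADA3, an adaptor shared by SAGA and ATAC, was at -0.24, and TADA2A, an adaptor of ATAC, at 0.31. In the INO80, SRCAP and TIP60 complexes, 12 of 22 genes lay above 0, with MBTD1 of TIP60 at 0.49 and MCRS1 of INO80 at -0.27.

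Other lists had medians near 0 as well. For CoREST, SIN3 and NCoR the median was 0.05, with SUDS3, a SIN3 subunit, at 0.38, RCOR3 also at 0.38, and BRMS1, another SIN3 subunit, at -0.28. The ISWI partners had a median of 0.02, with RSF1 at 0.48 and CHRAC1 at -0.27. Other histone methyltransferases had a median of 0.03, with PRMT9 at 0.52, SUV39H2, a writer of H3K9 trimethylation, at 0.46, and CARM1 at -0.31. Other demethylases had a median of 0.01, from RIOX1 at -0.29 to JMJD1C at 0.23. The 5 sirtuins past the filter, deacetylases that use NAD, had a median of -0.06, and 4 of them lay below 0, led by SIRT6 at -0.25. The acetyltransferase partners had a median of 0.00, with HAT1, which acetylates new histone H4, at 0.41. The highest median, 0.16, was that of 13 other remodelers and heterochromatin proteins, led by MPHOSPH8 of the HUSH silencing complex at 0.52 and MORC3 at 0.50. MPHOSPH8 passed the filter only through the FOSL1 siRNA array, since its control value was 7.87.

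**Figure D5:**
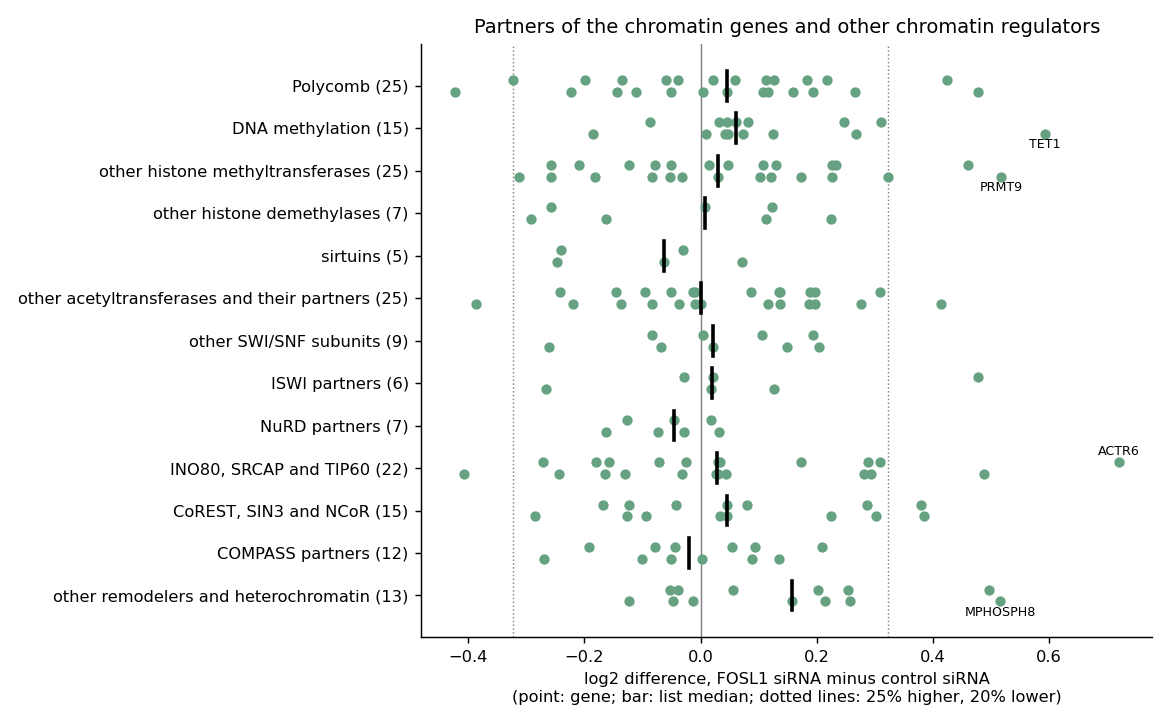
Log2 difference, FOSL1 siRNA minus control siRNA (horizontal axis), of partners of the chromatin genes and other chromatin regulators past the filter, by list (rows, number of genes in brackets), with list medians as bars and dotted lines at 0.32 log2 units either side. Some genes stand in more than 1 list, and ACTR6 at 0.72 and TET1 at 0.59 lie farthest right. The control value of ACTR6 lay under the filter.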

How the data were processed

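RNA from 2 UACC62 cultures was read on 1 array each. The authors deposited 1 value per probe set and array, taken as log2 intensity: as log2 the highest value, 14.81, is a linear 28717, under the 65535 of a 16-bit scanner, whereas as natural logs it would be 2702329. Background correction, probe summarisation and normalization are not given in the sources used here. The table of probe names gave 1 symbol to 16098 of 53427 probe sets and several to 0. All 14884 genes were found by Entrez ID in the RefSeq table (GRCh38.p14). The number of arrays, 1 per condition, limits the precision.

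Differences, counts at 1.5-fold and at 25% higher or 20% lower, and medians were computed in Python 3.11.15 with pandas 2.3.3, and trends were removed by loess (statsmodels 0.14.6). The steps were tested on simulated data. The rule for named genes took members at least 25% higher or 20% lower, the extremes of each class and selected regulators, and up to 2 genes per direction from each other list. Remaining members are named to account for each, and EZH2 and SETD1A were chosen after their values were seen. Members and lists were chosen with earlier results of these data known. The alternatives were centring, quantile normalization over named genes, loess on mean value or on gene span, 2 other filters, the mean of probe sets, a 2-fold threshold and a mean in place of the median.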

Additional observations from a re-analysis of the deposited data

How the results depend on the processing

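All alternatives were chosen with earlier results of these data known. No paired analysis was possible because each condition has 1 array. No member was 1.5-fold higher or lower under any alternative. At least 20% lower was 1 member, KMT5B, with quantile normalization over named genes (-0.33), with the loess trend on mean log2 value removed (-0.32) and with the span trend removed (-0.38), since its difference lies at the line. At least 25% higher were 0 of the 27 members left by the filter at the 75th percentile, which KDM7A and CHD2 do not pass. Under that filter the median of the 3 lysine methyltransferases left was 0.20, because the KMT5 genes drop out, and that of the 3 lysine acetyltransferases left was -0.21, against -0.05 for all 7. With the span trend removed the class medians were -0.05 for KDM2 to KDM4 and -0.00 for ARID genes, both positive before, 0.02 for KDM1, -0.10 for class I deacetylases and -0.03 for acetyltransferases. With no filter the ARID median was 0.02, and under the stricter filter that of KDM2 to KDM4 was 0.00. The median of all members ran from -0.03 with the span trend removed to 0.03 as a mean. Of 380 values of single members under the alternatives, all moved by at most 0.117, under the SD between probe sets, and 144 were unaltered by construction. With the span trend removed, CHD6, HDAC4, KDM1B, KDM3A, KDM4A and KDM4C changed sign. As the arrays share almost 1 distribution, scaling could move little, and stability here says nothing of what a second pair of cultures would give.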

Other observations

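The array also names RNAs that start beside or run against chromatin genes and that the rule on hyphens keeps out of the members. They were chosen after their values were seen. KDM7A-DT, a transcript that starts next to KDM7A and runs away from it, had log2 values of 7.76 with FOSL1 siRNA and 7.35 with control siRNA, a difference of 0.41 beside the 0.50 of KDM7A. KDM4A-AS1, antisense to KDM4A, had 7.74 with FOSL1 siRNA and 7.35 with control siRNA, a difference of 0.39, whereas KDM4A itself had 0.00. Both RNAs lay below the filter on dim genes. KMT2E-AS1 had a difference of 0.05. CHASERR, a long non-coding RNA upstream of CHD2 that is known from mouse to restrain it, had 9.57 with FOSL1 siRNA and 9.43 with control siRNA, a difference of 0.14 beside the 0.48 of CHD2. Whether the probes of overlapping genes separate the strands was not tested.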
